A study of Penicillium oxalicum with 9 samples.

Results

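Transcript levels of 5 regulator genes were followed in Penicillium oxalicum, a mould whose mycelium secretes cellulases, xylanases and amylases. The genes were chosen by locus number: PDE_05999 (clrB), PDE_07674 (xlnR), PDE_03168 (creA), PDE_03964 (amyR) and PDE_00087 (brlA). All 5 were among the 9860 genes of the deposited table, and all 5 passed the filter on low values. The table lists locus numbers without names, and 0 of its numbers matched the reference table at hand, which describes another strain. The names came with the locus numbers by which the genes were chosen and could not be checked against an annotation of strain 114-2 here.

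The series compared 3 strains with 3 libraries each: the wild type 114-2, a crzA deletion strain, and a crzA recovery strain, in which crzA was put back. All strains were first grown for 24 h at 30 °C, and RNA was taken 18 h after washed mycelium had been moved to fresh medium, which held 2% starch by its label. The source field of every sample names glucose instead, and this conflict could not be settled. Marker genes carried by the mutants, the number of independent transformants and the place of the restored crzA copy are not stated in the labels. Nothing in the labels tells whether replicates came from separate cultures, so p-values reflect only how far these libraries scatter, possibly for technical reasons.

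CrzA is a zinc finger transcription factor that enters the nucleus when calcium activates the phosphatase calcineurin. The series title asks how it bears on fungal development and on cellulolytic gene expression. ClrB and XlnR are zinc cluster activators, ClrB of cellulase genes and XlnR of xylanase and cellulase genes. AmyR activates amylase genes, and in Penicillium oxalicum it is also known to hold down cellulase genes. CreA is the zinc finger repressor of carbon catabolite repression, which shuts off enzyme genes while preferred sugars are at hand. BrlA is the zinc finger factor that, in Aspergillus nidulans, is needed for the development of conidiophores, the structures that bear asexual spores.

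Levels are in FPKM, that is, fragments per kilobase of gene, relative to the total of the library, and log2 changes are differences of log2(FPKM + 1), a scale on which changes of low genes come out too small. A gene is called changed where limma, fitted to all 9 libraries and 9099 genes, gave a two-sided adjusted p under 0.05 (Benjamini-Hochberg over all genes of that comparison). Summed FPKM ranged from 973798 to 1063502 per library, and numbers of reads are not stated in the sources used here. Log2 values of libraries of a strain correlated across genes, which are not independent replicates, at r = 0.989 to 0.995 in the recovery strain. In the wild type r was 0.943 and 0.949 for the pairs with replicate 2 and 0.993 for the other pair, and in the deletion strain 0.937 and 0.944 for the pairs with replicate 2 and 0.987 for the other. Wild-type replicate 2 and deletion replicate 2 therefore stood apart from their strains. The crzA transcript itself was not analysed here, because no locus number is paired with that name.

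The 5 genes did not move together. In the deletion strain brlA was far lower than in both other strains and clrB was higher than in both, by less than 2-fold. creA was higher in the deletion strain than in the wild type but not detectably different from the recovery strain, amyR was lower than in the recovery strain, and no change was detected in xlnR. Between deletion strain and wild type, 3 of the 5 genes were called, 2 higher (clrB and creA) and 1 lower (brlA), where 26.1% of all genes tested were called, 15.0% higher and 11.1% lower. Against the recovery strain 3 of the 5 were called, clrB higher and amyR and brlA lower, beside 31.5% of all genes, 15.4% higher and 16.1% lower. In the recovery strain against the wild type 1 of the 5 was called, brlA, which was higher, beside 1.57% of all genes and 0.846% called higher. The first and the second comparison share the deletion libraries, the first and the third share the wild type, and the second and the third share the recovery strain. The median log2 change of the 5 genes was -0.06, 0.05 and 0.65 in these comparisons, and that of all genes tested was 0.06, -0.02 and 0.09.

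**Figure D1:**
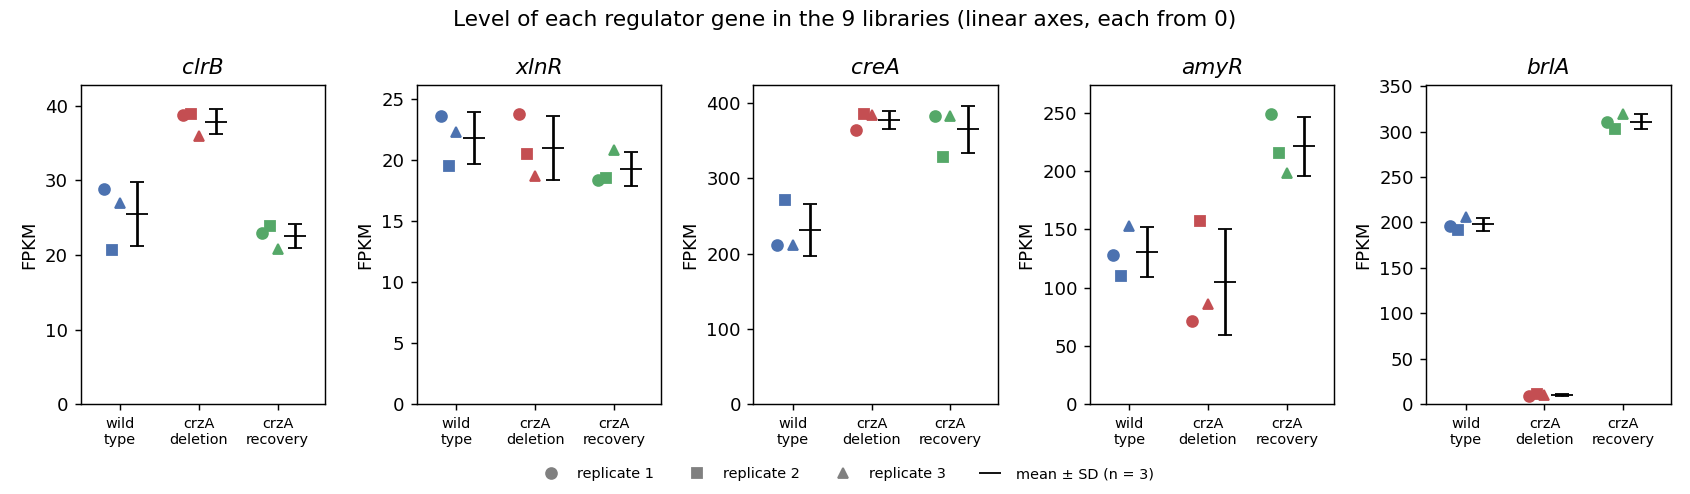
FPKM (vertical axes, linear, each from 0) of the 5 regulator genes in each of the 9 libraries, by strain; symbols mark replicates, and the bar beside them is the mean ± SD of 3 libraries. The brlA values of the deletion strain lie between 9.32 and 11.5, far under the 192 to 319 of the other 6 libraries, whereas the xlnR values of the 3 strains overlap.

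Expression of clrB, the activator of cellulase genes, was higher in the deletion strain than in both other strains. Its level was 28.9, 20.7 and 27.0 FPKM in wild-type replicates 1, 2 and 3. It was 38.7, 38.9 and 35.9 FPKM in the deletion libraries and 22.9, 23.9 and 20.8 FPKM in the recovery libraries. Each deletion library lay above every other library, while the wild-type and recovery values overlapped, with wild-type replicate 2 the lowest of all 9. Wild-type libraries averaged 25.5 ± 4.27 FPKM and deletion libraries 37.9 ± 1.67 (SD, n = 3 each), a 1.48-fold higher level. On the log2 scale this change was 0.56 ± 0.14 (SE, limma adjusted p = 0.0195). This call was lost without deletion replicate 1 (log2 change 0.55, limma adjusted p = 0.0555) and in a fit to the 2 strains alone (limma adjusted p = 0.0697). The recovery libraries averaged 22.5 ± 1.58 FPKM (SD, n = 3), and the deletion level was 1.68-fold higher than that, by 0.72 ± 0.14 in log2 (SE, limma adjusted p = 0.00523). Recovery and wild type differed by a log2 change of -0.16, with a 95% interval from -0.48 to 0.17 (limma adjusted p = 0.663), so no difference was detected between them.

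For xlnR, the activator of xylanase genes, no difference between the strains was detected. Its level was 23.6, 19.5 and 22.4 FPKM in the wild-type libraries, 23.8, 20.5 and 18.7 in the deletion libraries, and 18.4, 18.5 and 20.9 in the recovery libraries. All 9 values lay within a 1.30-fold range, and the values of each pair of strains overlapped. The deletion strain against the wild type gave a log2 change of -0.06 with a 95% interval from -0.37 to 0.26 (limma adjusted p = 0.800). Against the recovery strain it was 0.12 with an interval from -0.20 to 0.43 (limma adjusted p = 0.556). Recovery against wild type gave -0.17 with an interval from -0.48 to 0.14 (limma adjusted p = 0.627). Each of the 3 intervals left out a 2-fold change in either direction.

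The amylase activator gene amyR stood highest in the recovery strain and varied most between libraries of the deletion strain. It measured 128, 110 and 153 FPKM in the wild-type libraries and 249, 216 and 198 FPKM in the recovery libraries. The deletion libraries held 71.2, 157 and 86.3 FPKM. Deletion replicates 1 and 3 lay under every other library, whereas deletion replicate 2, one of the libraries that stood apart, lay above all 3 wild-type values. The deletion strain, at 105 ± 45.8 FPKM, was 2.11-fold lower than the recovery strain, at 221 ± 25.7 FPKM (SD, n = 3 each). The log2 change was -1.15 ± 0.27 (SE, limma adjusted p = 0.0128), and the values of these strains did not overlap. Without deletion replicate 3 the limma adjusted p was 0.0507 and without recovery replicate 1 it was 0.0539, both above the threshold, with log2 changes of -1.05 and -1.06.

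Against the wild type, at 130 ± 21.6 FPKM (SD, n = 3), the log2 change of amyR in the deletion strain was -0.38 with a 95% interval from -1.01 to 0.24 (limma adjusted p = 0.337). Without deletion replicate 2 this change was -0.71 and was called (limma adjusted p = 0.0121). Without deletion replicate 1 it was -0.15 (limma adjusted p = 0.738) and without deletion replicate 3 it was -0.29 (limma adjusted p = 0.574), so the value depended on each of these libraries. The recovery strain stood 1.69-fold above the wild type in amyR, with no overlap between their values. That log2 change of 0.76 ± 0.27 (SE) was not past the threshold (limma adjusted p = 0.242), although its unadjusted 95% interval, from 0.14 to 1.39, left out 0. It was called without deletion replicate 2, which enters only through the shared spread (limma adjusted p = 0.0314).

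The repressor gene creA lay above the wild-type values in both the deletion and the recovery strain, at nearly one level in both, and passed the test in the deletion strain. Its level was 212, 272 and 212 FPKM in the wild-type libraries, with replicate 2 the highest. It was 364, 385 and 384 FPKM in the deletion libraries and 383, 329 and 383 FPKM in the recovery libraries. Every deletion and recovery library thus lay above every wild-type library, and the deletion and recovery values overlapped. Deletion libraries averaged 378 ± 12.1 FPKM against 232 ± 34.5 for wild-type libraries (SD, n = 3 each), 1.63-fold more, and 0.71 ± 0.15 higher in log2 (SE, limma adjusted p = 0.00825). The recovery strain held 365 ± 31.4 FPKM, 1.57-fold more than the wild type. Its log2 change of 0.66 ± 0.15 (SE) missed the threshold (limma adjusted p = 0.0741). It was called without wild-type replicate 2 (log2 change 0.78, limma adjusted p = 0.0124) and without deletion replicate 2 (limma adjusted p = 0.0351). Between the deletion and the recovery strain the log2 change was 0.05 with a 95% interval from -0.29 to 0.39 (limma adjusted p = 0.817).

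Of the 5 genes, brlA, the regulator of conidiation, changed most in the strain without crzA. It was at 196, 192 and 206 FPKM in the wild-type libraries and at 311, 303 and 319 FPKM in the recovery libraries. In the deletion libraries it was at 9.32, 11.5 and 10.1 FPKM. The 3 strains did not overlap in any pair, and the values of each strain lay close together, those of the libraries that stood apart included. Wild-type libraries averaged 198 ± 7.21 FPKM and deletion libraries 10.3 ± 1.13 (SD, n = 3 each), 19.2-fold lower. The log2 change was -4.14 ± 0.12 (SE, limma adjusted p = 3.38e-08), and 106 of the 9099 genes tested, brlA included, fell at least as far. Against the recovery strain, at 311 ± 8.45 FPKM, the deletion strain was 30.1-fold lower (log2 change -4.79 ± 0.12, SE, limma adjusted p = 2.07e-08), and 80 genes fell at least as far. Both counts are on the log2(FPKM + 1) scale, so low genes that fell by a larger fold can be missing from them. In bulk mycelium, fewer cells expressing brlA and less brlA RNA per cell cannot be told apart.

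In the recovery strain brlA stood above the wild-type level. The recovery strain was 1.57-fold higher than the wild type, or 0.65 ± 0.12 in log2 (SE, limma adjusted p = 0.0339). This call was close to the threshold. It was lost with the values centred on their medians (limma adjusted p = 0.0672). It was also lost without wild-type replicate 1 or 3 (limma adjusted p = 0.145 and 0.130), without deletion replicate 3 (0.0606) and without recovery replicate 1, 2 or 3 (0.194, 0.159 and 0.112), while the log2 change without any 1 of the 9 libraries lay between 0.62 and 0.68.

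**Figure D2:**
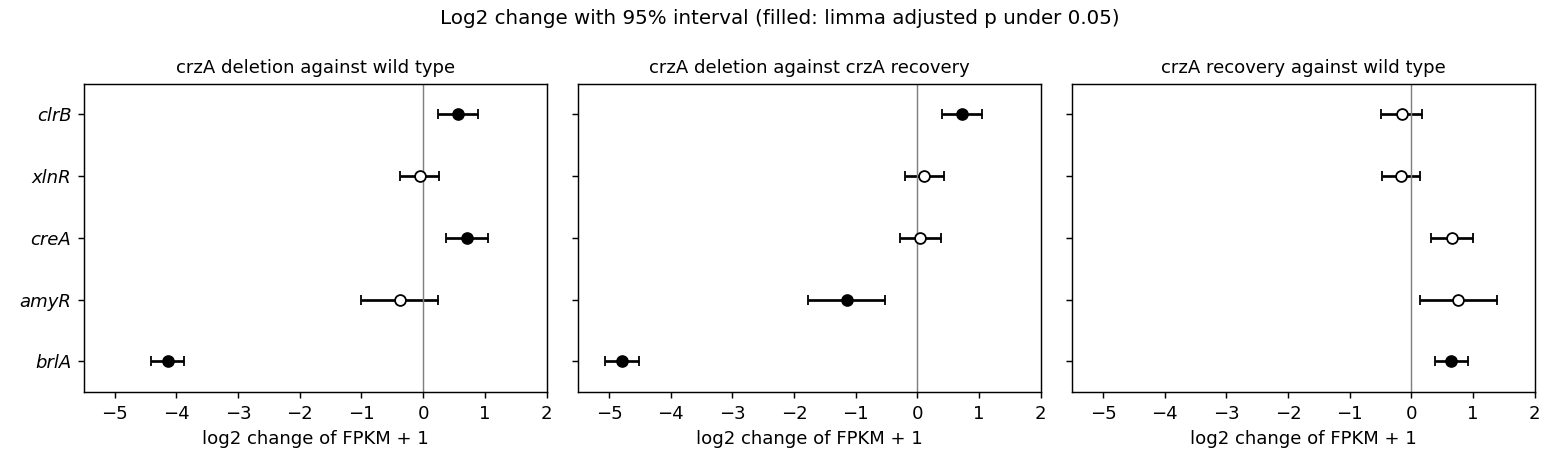
Log2 change of FPKM + 1 (horizontal axis) of each regulator gene in the 3 strain comparisons; points are the limma estimates, bars their 95% intervals, and filled points have a limma adjusted p under 0.05. The brlA points lie at -4.14 and -4.79 in the comparisons with the deletion strain, and all intervals of xlnR cross 0.

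Against all genes tested, the called changes of clrB, creA and amyR in the comparisons with the deletion strain were of common size. Between deletion strain and wild type, 1601 genes rose at least as far as clrB and 1223 at least as far as creA. Against the recovery strain, 1242 genes rose at least as far as clrB and 728 fell at least as far as amyR. In the recovery strain against the wild type, the 3 genes at the higher end had 264 (amyR), 380 (creA) and 396 (brlA) genes at or above them. In that comparison the values of the strains did not overlap in 3 of the 5 regulator genes, all higher in the recovery strain, where 30.1% of all genes did not overlap, 21.9% being higher and 8.17% lower. Between deletion strain and wild type 3 of the 5 genes did not overlap, 2 higher and 1 lower, beside 35.9% of all genes, 21.4% higher and 14.5% lower. Between deletion and recovery strain 3 of the 5 did not overlap, 1 higher and 2 lower, beside 49.3%, of which 24.4% higher and 25.0% lower.

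**Figure D3:**
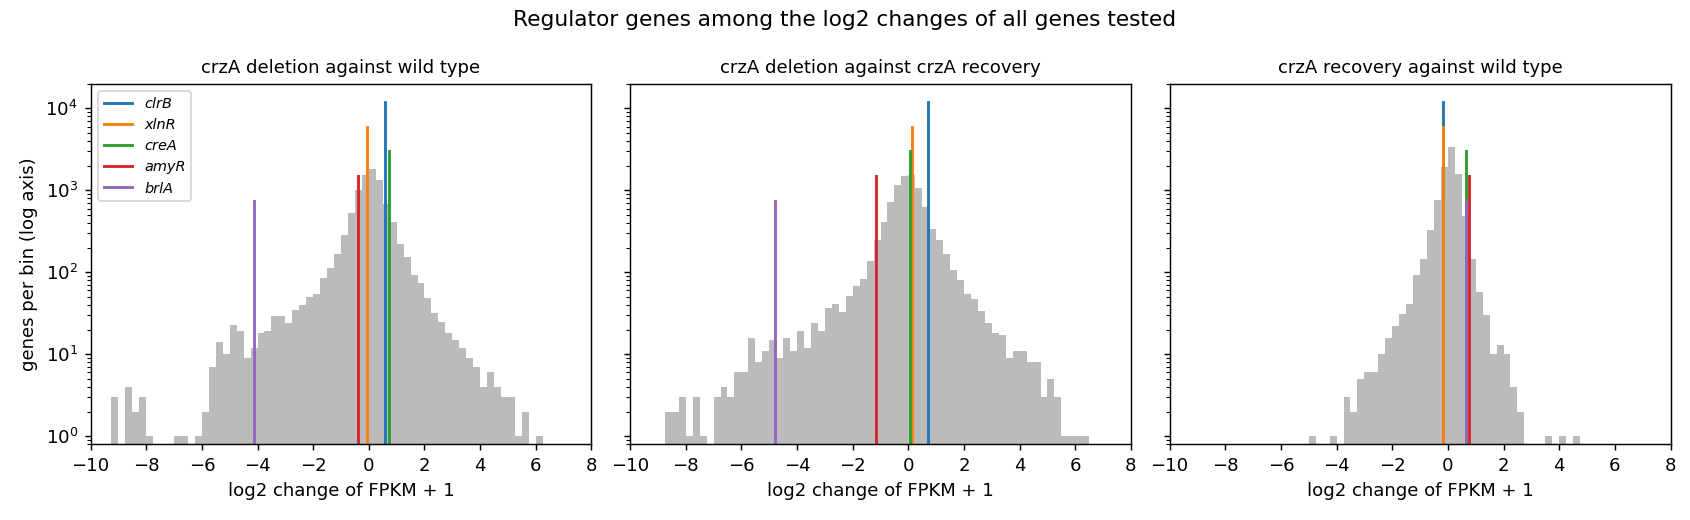
Number of genes per bin of log2 change (grey; vertical axis logarithmic) among the 9099 genes tested in each comparison, with the 5 regulator genes as coloured lines whose height has no meaning. The brlA line stands in the lower tail of both comparisons with the deletion strain, and the other lines in these comparisons stand in the body of the distribution.

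The order of the 5 genes by level differed between the strains. FPKM is per length of gene, but the labels describe a tag protocol, so levels of different genes need not compare as numbers of molecules. In the wild type the order was creA (232 FPKM), brlA (198), amyR (130), clrB (25.5) and xlnR (21.8), and it was the same in the recovery strain. Of the neighbours in this order, clrB and xlnR overlapped in both strains, and the others did not. In the deletion strain the order was creA (378 FPKM), amyR (105), clrB (37.9), xlnR (21.0) and brlA (10.3), with no overlap between neighbours. Ranked among all 9860 genes of a library, creA stood at percentile 92.5 to 95.8 in all libraries. Percentiles of brlA were 91.5 to 92.2 for wild-type libraries, 28.3 to 32.1 for deletion libraries and 94.5 to 94.8 for recovery libraries. The clrB percentile was 45.6 to 54.0 in wild-type libraries and 61.2 to 62.5 in deletion libraries, and that of xlnR stayed between 39.0 and 48.2 in all 9 libraries.

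Ratios between regulator genes within a library do not depend on how the library was scaled. With 3 libraries against 3, an exact two-sided permutation test cannot go below p = 0.1, so these ratios are given as values and by whether the strains overlap. The clrB level over the xlnR level was 1.16 in wild-type libraries (geometric mean, lowest 1.06, highest 1.22), 1.81 in deletion libraries (1.63 to 1.92) and 1.17 in recovery libraries (0.999 to 1.29). Relative to xlnR, clrB was thus higher in each deletion library than in any other library. The ratio of clrB to creA was 0.110 in wild-type libraries (0.0762 to 0.136), 0.10 in deletion libraries (0.0936 to 0.107) and 0.0618 in recovery libraries (0.0543 to 0.0728). Wild-type replicates 1 and 3, at 0.136 and 0.127, lay above every deletion library, and wild-type replicate 2, which stood apart, lay below all of them and just above the highest recovery value. The overlap of wild type and deletion in this ratio thus rests on that library, while every recovery library lay below all libraries of both other strains. The xlnR to creA ratio was 0.0945 in wild-type libraries (0.0718 to 0.111), 0.0553 in deletion libraries (0.0487 to 0.0654) and 0.0528 in recovery libraries (0.0480 to 0.0564), with no overlap between the wild type and either other strain.

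The ratios of amyR to clrB and to xlnR were highest in the recovery strain. The amyR level was 5.12 times the clrB level in wild-type libraries (4.44 to 5.68), 2.61 times in deletion libraries (1.84 to 4.03) and 9.77 times in recovery libraries (9.02 to 10.9), with no overlap between any pair of strains. Over xlnR it was 5.94 in wild-type libraries (5.43 to 6.85), 4.73 in deletion libraries (2.99 to 7.65) and 11.4 in recovery libraries (9.51 to 13.5). Only the recovery strain stood clear of both others in this ratio. Over creA, amyR was 0.562 in wild-type libraries (0.405 to 0.723), 0.262 in deletion libraries (0.196 to 0.407) and 0.604 in recovery libraries (0.518 to 0.656). The highest deletion value, that of replicate 2, lay just above the lowest wild-type value, that of replicate 2, and the recovery values lay within the wild-type range.

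**Figure D4:**
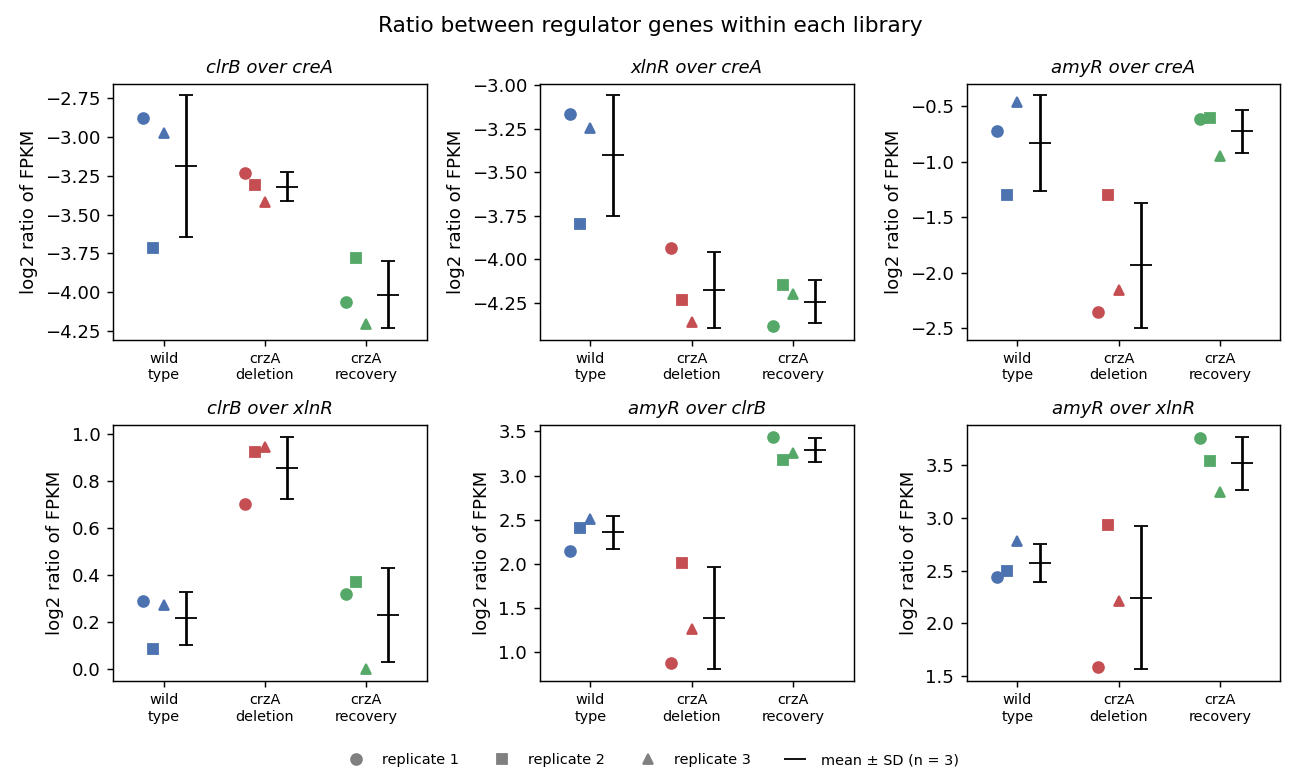
Log2 ratio of FPKM between pairs of regulator genes within each of the 9 libraries (vertical axes, not from 0), by strain; symbols mark replicates, and the bar beside them is the mean ± SD of 3 libraries. The ratio of clrB to xlnR is higher in the 3 deletion libraries than in the other 6, and the ratio of amyR to clrB separates all 3 strains.

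Genes near the regulators along the locus numbers were looked at for changes of their own. Of 48 tested genes within 5 locus numbers of a regulator, 9 were called between deletion strain and wild type (5 higher, 4 lower), 18.8% beside 26.1% of all genes. Against the recovery strain 12 were called (6 higher, 6 lower), 25.0% beside 31.5%. In the recovery strain against the wild type 1 was called, lower, 2.08% beside 1.57% of all genes. Around brlA, 2 of 9 tested neighbours were called higher and 2 lower without crzA, again against the wild type. Among all genes 15.0% were called higher and 11.1% lower. Compared with the recovery strain, 2 of these 9 were called higher and 3 lower, beside 15.4% and 16.1% of all genes. The 3 lower ones were PDE_00082, PDE_00088 and PDE_00089. Each share was larger around brlA than among all genes, but this excess in 9 genes was not tested. The fall of brlA was not shared by the whole stretch. On the log2(FPKM + 1) scale, the brlA neighbour with the steepest fall from the wild type was PDE_00082, chosen after its values were seen. Its mean levels were 276 FPKM in wild-type and 20.1 FPKM in deletion libraries (log2 change -3.59, limma adjusted p = 0.000147). PDE_00088, next to brlA and also chosen after its values were seen, averaged 2.62 FPKM in wild-type and 0 FPKM in deletion libraries. Its log2 change of -1.77 (limma adjusted p = 0.00425) is held small by the 1 FPKM added. None of the 10 tested neighbours of clrB was called between deletion strain and wild type, their log2 changes ranging from -0.37 to 0.55.

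Genes with profiles like those of the regulators were sought by the root mean square difference of log2(FPKM + 1) over the 9 libraries, each gene centred on its own mean, among 8004 other genes with a mean of at least 5 FPKM. Within a difference of 0.25 there were 8 genes for brlA, 69 for amyR, 366 for creA, 627 for clrB and 1944 for xlnR. These counts follow the size of each profile's own variation, which has an SD of 2.12 for brlA and 0.13 for xlnR, since nearly flat genes lie close to one another; they do not measure how widely a profile is shared. The closest to brlA were PDE_01157, at a difference of 0.16, and PDE_10006, at 0.19. In the order wild type, deletion and recovery, PDE_01157 averaged 19.4 ± 1.77, 0.307 ± 0.0808 and 29.3 ± 3.78 FPKM (SD, n = 3 each) and PDE_10006 41.5 ± 2.32, 0.807 ± 0.243 and 54.8 ± 4.17 FPKM. Their likeness to brlA is what chose them, and at such low deletion levels it depends on the 1 FPKM added before the logarithm. Closest to amyR were PDE_06681 and PDE_09340, both at 0.16, and closest to creA PDE_08625 (0.12) and PDE_06990 (0.13). Closest to clrB were PDE_01277 (0.09) and PDE_08759 (0.10), and closest to xlnR PDE_04406 and PDE_06123, both at 0.06. Among the regulators themselves the closest pair was clrB and xlnR, at 0.31, and brlA was at least 1.76 from each of the others. Since xlnR was nearly flat, the 0.31 is close to the SD of the clrB profile itself, 0.34. It does not show that clrB and xlnR varied together.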

How the data were processed

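Per the file headers, the authors deposited FPKM values, with 2 decimals, of 9860 genes in 9 columns, 1 per library. Per the labels' protocols, the libraries hold short tags cut with NlaIII and MmeI, for which no division by gene length is needed, so the protocol and the unit do not match. For aligner, counting tool, genome build and annotation, the entry is: not given in the sources used here. Read depth was not given either, and no counting interval was computed. Columns were matched to samples by title.

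The filter kept 9099 genes that reached 1 FPKM in 3 or more libraries. Their log2(FPKM + 1) values in all 9 libraries were fitted with limma 3.58.1 (R 4.3.3), with 1 mean per strain, no covariates, and trend and robust moderation. The fit was tested on simulated data with normal noise and 200 changed genes, far fewer than were called between deletion strain and wild type here. It called 52.2% of 2-fold and 88% of 4-fold changes, and 4.89% of its calls were false. The noise was drawn separately for each gene, with the same SD in all strains. Libraries that stand apart across many genes were therefore not simulated, and these shares need not hold for the deposited data. Changes under 2-fold were not simulated. Intervals are 95% intervals of that fit, unadjusted. Summaries and plots used pandas 2.3.3, numpy 2.4.6, matplotlib 3.10.9 and scipy 1.17.1 under Python 3.11.15. The genes, tests and alternatives were chosen with earlier results of these data known. The rule for other names took the 2 genes closest in profile to each regulator. No list of other regulators could be used, because no locus number is paired with a name. Alternatives were other pseudocounts, filters, scalings, weights, a replicate block, and libraries left out.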

Additional observations from a re-analysis of the deposited data

How the results depend on the processing

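Of 345 log2 changes of the 5 genes under other settings, 318 kept their side of the threshold, 15 were no longer past it and 12 were newly past it, and 0 called changes reversed. Those of brlA and of clrB in deletion against recovery, of creA and brlA in deletion against wild type kept their call under every setting run. An adjusted p under 0.01 ended the calls of amyR in deletion against recovery (-1.15), brlA in recovery against wild type (0.65) and clrB in deletion against wild type (0.56), and left 1246, 1572 and 49 genes called in deletion against wild type, deletion against recovery and recovery against wild type, by construction. In all cases below the cause was not tested. Fitting only the strains compared ended clrB in deletion against wild type (0.56) and gave 1440 and 290 genes in the first and the third comparison. Median centring ended brlA in recovery against wild type (0.58). Without wild-type replicate 2 and deletion replicate 2, amyR was called in deletion against wild type (-0.83) and in recovery against wild type (0.65), creA in the latter (0.78), and 4918, 5454 and 2544 genes in all. Array weights called the same 3 changes (-0.79, 0.65 and 0.72) and also clrB (-0.22) and xlnR (-0.26) in recovery against wild type, with 4653, 5085 and 4032 genes. Leaving out 1 library at a time gave log2 changes from -1.48 to -0.91 for amyR in deletion against recovery, -0.71 to -0.15 for amyR in deletion against wild type, 0.65 to 0.88 for amyR, 0.62 to 0.68 for brlA and 0.60 to 0.78 for creA in recovery against wild type, and 0.43 to 0.66 for clrB in deletion against wild type. Genes called then ranged from 1435 to 3756, 1822 to 4297 and 31 to 683. Replicate numbers were not treated as a pairing: correlations between deviations of libraries with one number exceeded 0.1 in 3 of 9 cases and lay between -0.11 and 0.22. With the replicate block brlA in recovery against wild type was no longer called (log2 change 0.65, limma adjusted p = 0.0873), and no other call of the 5 genes changed. Scaling moved the median log2 change of all genes by less than 0.1. Some scalings still turned which direction held more calls. For deletion against recovery, 1402 genes higher and 1462 lower became 1639 and 1189 as TPM. They became 1638 and 1329 with quantiles equalized and 1610 and 1308 with medians centred. With the most abundant gene left out of the total they became 1215 and 1640, which kept more genes lower. For recovery against wild type, 77 and 66 became 56 and 71 with medians centred and 79 and 85 with quantiles equalized. Limits set by read depth were not estimated.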
